A study of Mus musculus with 5 samples.

Results

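The fibroblast growth factor (FGF) genes examined here are 4 ligand genes (Fgf3, Fgf4, Fgf8 and Fgf10), the receptor gene Fgfr1, and 5 genes that FGF signalling is known to switch on (Spry1, Spry2, Spry4, Dusp6 and Etv4). They were taken by name, 10 of the 21883 protein-coding genes on the named mouse chromosomes, and all 10 were found in the gene table. For each gene, every peak was collected whose summit lay in the gene or within 100 kb of either end, and such a peak is called a site of that gene. This gave 14 different sites among the 5703 peaks of the Foxf1 list and 1 site among the 1134 peaks of the Hand1 list. Because 3 Foxf1 sites fell in the windows of both Fgf3 and Fgf4, the sum over genes was 17.

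The lists come from chromatin immunoprecipitation followed by sequencing (ChIP-seq), which maps where a protein sits on DNA, in mouse E14 embryonic stem cells that were being turned into heart precursors. Hand1, a basic helix-loop-helix transcription factor, carried an HA tag at its own gene and was precipitated at the stage abbreviated MES, after 48 h as embryoid bodies and 40 h of re-aggregation with 5 ng/mL VEGF, 10 ng/mL Activin A and 0.3 ng/mL BMP4. Foxf1, a forkhead transcription factor, carried the same tag on an inducible overexpression construct and was precipitated at the stage abbreviated CP, after a further 32 h on gelatin with 5 ng/mL VEGF, 10 ng/mL basic FGF and 25 ng/mL FGF10. The series labels 1 Hand1 library, 2 Foxf1 libraries and 1 input library (chromatin without precipitation) at each stage; 1 peak list per factor was analysed here, and the Foxf1 list belongs to replicate 1. Factor, stage, culture medium and the way the tagged protein was made differ together between the lists, so their effects cannot be told apart. Foxf1 came from an overexpression construct, so its sites are those of added protein, and whether either line is a single clone is not given in the sources used here. No expression was measured in these files, so the labelled stages were not checked against marker genes. With 1 list per factor no value has a replicate error, and no difference below was tested.

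FGF ligands are secreted proteins that bind receptor tyrosine kinases such as Fgfr1 and, through Ras and the ERK kinase, switch on target genes in the receiving cell. Among these targets are brakes on the same pathway: the Sprouty proteins (Spry1, Spry2 and Spry4) restrain the signal between receptor and ERK, and Dusp6 removes the activating phosphates from ERK. Etv4 is an ETS transcription factor that carries part of the response. In the early embryo Fgf4 and Fgf8 act in the primitive streak and nascent mesoderm, and Fgf8 and Fgf10 are well-known ligands of the second heart field.

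Promoter sequences are shown for the genes where they bear on the results: Spry2, the FGF gene with the closest site; Fgf10, which had no site in either list; and Dhx8, whose promoter lies under the strongest site found near any of the 10 genes. Each is the 250 bases before the annotated gene start, from RefSeq on GRCm38.p6, written 5′ to 3′ along the strand of the gene. Spry2 (chr14:105896820-105897069, minus strand) is shown with its only CANNTG, the core letters of the E-box bound by basic helix-loop-helix proteins, in capitals. Fgf10 (chr13:118714449-118714698, plus strand) is shown with its only TGTTTAC, the core letters of the forkhead motif, in capitals. Dhx8 (chr11:101732706-101732955, plus strand) is shown with the 21 bases centred on the Foxf1 summit in capitals.
Spry2: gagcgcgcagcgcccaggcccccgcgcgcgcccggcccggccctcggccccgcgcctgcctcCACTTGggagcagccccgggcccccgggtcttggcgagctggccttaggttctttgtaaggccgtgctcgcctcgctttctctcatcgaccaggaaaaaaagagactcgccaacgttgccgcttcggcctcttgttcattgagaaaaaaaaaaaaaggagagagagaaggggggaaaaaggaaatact
Fgf10: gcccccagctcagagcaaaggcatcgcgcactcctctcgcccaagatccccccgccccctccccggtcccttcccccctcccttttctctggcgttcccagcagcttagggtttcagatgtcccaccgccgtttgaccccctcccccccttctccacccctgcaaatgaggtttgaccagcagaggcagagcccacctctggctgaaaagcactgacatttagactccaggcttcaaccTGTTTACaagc
Dhx8: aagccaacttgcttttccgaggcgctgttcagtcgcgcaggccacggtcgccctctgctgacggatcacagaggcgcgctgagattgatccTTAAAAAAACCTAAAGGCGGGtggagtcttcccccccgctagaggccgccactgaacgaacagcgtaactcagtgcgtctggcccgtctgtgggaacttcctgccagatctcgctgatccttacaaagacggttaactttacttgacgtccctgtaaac

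The table held promoters of 6 of the 10 genes (Fgf3, Fgf4, Fgf10, Spry1, Spry2 and Dusp6), and each motif was searched on both strands in these 250 bases. TGTTTAC was found in 1 of the 6, Fgf10, 11 to 5 bases before the gene start, and in 3.17% of 32841 promoters in the table. The shorter forkhead core TAAACA, which overlaps it, was likewise found in Fgf10 alone of the 6, against 12.0% of all promoters. CATCTG, an E-box spelling, was also in Fgf10 alone of the 6, against 14.4% of all. Any CANNTG, which includes CATCTG, was found in 5 of the 6, all except Fgf3, against 66.2% of all promoters. CCGGAA, the core letters for ETS factors such as Etv4, was in 0 of the 6 and in 12.0% of all. Of these 6 promoters, only that of Fgf10, a gene without a site in either list, carried forkhead letters. E-box core letters were not special to it: Fgf4, Spry1, Spry2 and Dusp6 held them too. None of these genes had a Hand1 site. Fgf4 and Spry2 had Foxf1 sites, all outside the searched bases, and Spry1 and Dusp6 had none. Promoters of Fgf8, Fgfr1, Spry4 and Etv4 were not searched, and a link between motifs and sites was not tested. The 250 bases printed for Dhx8, under the strongest Foxf1 site, hold none of the 5 motifs. That peak (chr11:101732595-101733103) reaches past these bases on both sides, and the rest of it was not searched. The printed bases end in GTAAAC, so a forkhead motif running past their end would be missed.

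A Foxf1 site was found for 7 of the 10 FGF genes, and 53.3% of all protein-coding genes had one by the same rule. By role, it was 3 of the 4 ligand genes, the receptor gene, and 3 of the 5 feedback and target genes. A Hand1 site was found for 1 of the 10, Spry4, against 9.90% of all protein-coding genes. Read against these background shares, neither count sets the FGF genes apart from other genes. Spry4 was also the only one of the 10 with a site in both lists, against 7.65% of all protein-coding genes. Of the 14 Foxf1 sites, 0 overlapped a Hand1 peak, and 3.24% of all Foxf1 peaks did, so 0 of 14 is near the background. A Foxf1 summit lay inside 0 of the 10 genes, against 11.0% of all protein-coding genes. Of the 14, 6 lay inside another protein-coding gene, and 49.4% of all Foxf1 summits on named chromosomes lay inside one.

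**Figure D1:**
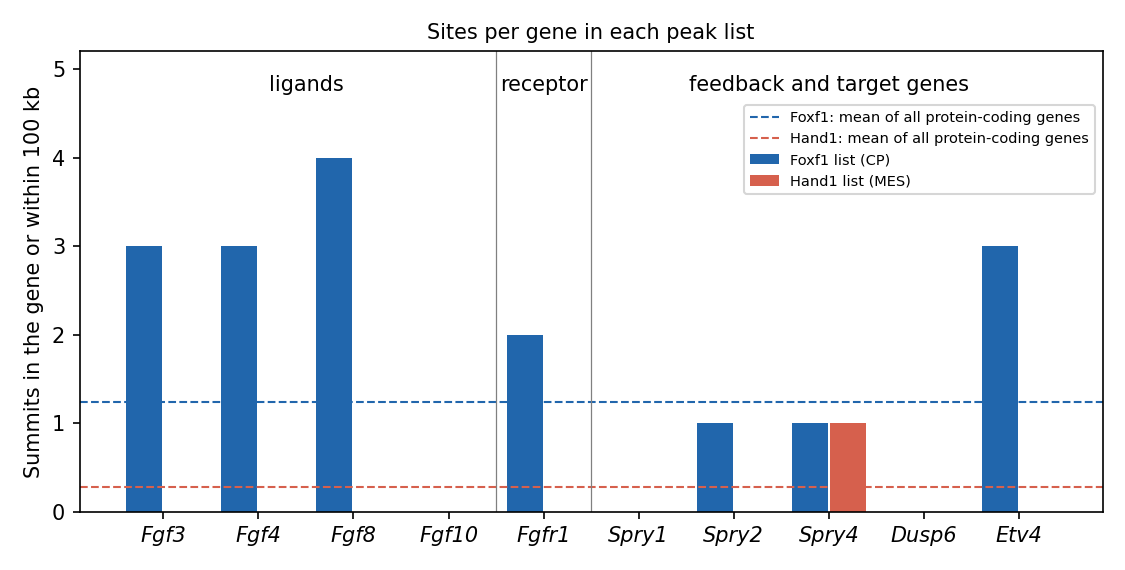
Number of summits in each gene or within 100 kb (vertical axis) for the 10 FGF genes, blue for the Foxf1 list and red for the Hand1 list; dashed lines are the means over all 21883 protein-coding genes, 1.25 for Foxf1 and 0.280 for Hand1. Fgf8 has the most Foxf1 sites (4), Fgf10, Spry1 and Dusp6 have 0, and Spry4 alone has a Hand1 site.

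Fgf3 and Fgf4, which code for neighbouring ligands, shared all their Foxf1 sites. Fgf3 lies at chr7:144838612-144843348 and Fgf4 at chr7:144861386-144865245, 18.0 kb apart and on the plus strand. The 3 sites lay downstream of both genes, toward Fgf15, another ligand gene, which begins 31.3 kb beyond Fgf4, and Ccnd1, which codes for cyclin D1. The first (chr7:144895035-144896238, fold enrichment 6.70) had its summit 52.6 kb from Fgf3, 30.7 kb from Fgf4 and only 0.562 kb from Fgf15, inside the lncRNA gene Gm26793. The next (chr7:144906885-144907345, fold 7.44) lay 6.23 kb from Fgf15, inside the lncRNA gene Gm39119. The last (chr7:144937352-144937845, fold 9.60) lay inside Ccnd1, 72.4 kb from Fgf4 and 94.3 kb from Fgf3. For each of the 3 another protein-coding gene was therefore nearer than Fgf3 or Fgf4. The nearest Hand1 summits were 2355 kb from Fgf3 and 2378 kb from Fgf4.

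Fgf8, at chr19:45736491-45742941, had 4 Foxf1 sites, the most of the 10 genes, and 0 Hand1 sites. The closest (chr19:45747400-45748094) had a fold of 6.13 and lay 4.71 kb from Fgf8, but 0.082 kb from Npm3, a gene for a histone chaperone of the nucleoplasmin family. The other 3 lay 62.2 kb, 70.5 kb and 73.0 kb from Fgf8, all inside Kcnip2, which codes for a protein partner of potassium channels. Their folds were 6.89 (chr19:45805035-45805553), 7.40 (chr19:45812965-45813694) and 6.70 (chr19:45815682-45816282). All 4 sites lay on the side of higher coordinates. Fbxw4, the neighbouring gene on the other side whose introns are known to hold Fgf8 enhancers, contained 0 summits of either list. The nearest Hand1 summit was 1038 kb from Fgf8.

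Fgf10, at chr13:118714699-118792573, stood apart from the other ligand genes, with 0 sites in both lists. Its nearest Foxf1 summit was 636 kb away, and 84.1% of all protein-coding genes had one closer. Its nearest Hand1 summit was 806 kb away, with 43.2% of all genes closer. Fgf10 is the only protein-coding gene in its window. Among the 1181 genes alone in their windows, 20.7% had a Foxf1 site. FGF10 protein itself was part of the medium at the CP stage, where Foxf1 was mapped, and a bearing of this on the missing sites was not tested.

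The receptor gene Fgfr1, at chr8:25518759-25575718, had 2 Foxf1 sites and 0 Hand1 sites. The nearer (chr8:25596917-25597761, fold 7.20) lay 21.4 kb from Fgfr1, inside Letm2 and the lncRNA gene D830025C05Rik. It held an inferred 64 fragments at its summit, the most of the 14 sites, over a control level of 8.03. The control level is the background that the peak caller set for that position, solved from the deposited values, and it is called high from 7.83 upward, 5 times the lowest value among Foxf1 peaks. It was the only high one among the 14, and 96.6% of the Foxf1 list lay lower. The other site (chr8:25627268-25627651, fold 6.99) lay 51.7 kb away inside Nsd3, a histone methyltransferase gene, with 23 fragments over a level of 2.43. Peaks on chromosome 8 had a median control level of 4.14 in the Foxf1 list, against 2.79 on the other autosomes. In the Hand1 list the median was 7.14 over 52 peaks on chromosome 8, against 1.74 on the other autosomes. The part of these levels in the Fgfr1 results of either list was not tested. The nearest Hand1 summit was 4524 kb from Fgfr1.

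Spry2, at chr14:105891947-105896819, had the closest site of all. Its single Foxf1 site (chr14:105898483-105899407) lay between genes, with the summit 2.19 kb upstream of the gene start, beyond the promoter printed above. The fold was 9.24, higher than 75.4% of the Foxf1 list, with 42 fragments over a control level of 3.65. No other protein-coding gene reaches into the 100 kb window of Spry2. Foxf1 summits lay closer than 2.19 kb, or inside the gene, for 15.9% of all protein-coding genes. The nearest Hand1 summit was 1176 kb away.

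Spry4, at chr18:38586247-38601347, had 1 site in each list. The Foxf1 site (chr18:38575511-38576548, fold 6.70, 22 fragments over a control level of 2.43) lay 10.5 kb from the gene, with Spry4 the nearest protein-coding gene. The Hand1 site (chr18:38494687-38495143, fold 6.64, 23 fragments over a control level of 2.62) lay 91.2 kb from Spry4 on the same side, and 29.8 kb from Ndfip1, which codes for an adaptor of ubiquitin ligases. The summits were 80.7 kb apart. Both sites ranked low by fold, the Foxf1 site above 25.8% of the peaks of its list and the Hand1 site above 34.1% of its own. The latter is the only Hand1 site of the 10 genes.

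Spry1 (chr3:37639947-37644599) and Dusp6 (chr10:99263231-99267489) had 0 sites in both lists. The nearest Foxf1 summit was 583 kb from Spry1 and 349 kb from Dusp6, and 82.9% and 75.0% of all protein-coding genes had one closer. The nearest Hand1 summits, 7039 kb and 5810 kb away, were farther than for 94.4% and 91.4% of all genes. A missing site means that no summit passed the limit of the deposited list. At the lowest control level, the weakest peak in the Foxf1 list held 18 fragments (fold 7.38) and the weakest in the Hand1 list 13 (fold 6.21), so weaker binding would not appear.

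Etv4, at chr11:101769747-101785310, had 3 Foxf1 sites. The strongest of the 14 sites lay here (chr11:101732595-101733103), with a fold of 15.7, higher than 97.5% of the list, and 57 fragments over a control level of 2.69. Its summit was 36.9 kb from Etv4 but in the Dhx8 promoter shown above, 149 bases before the start of that gene, which codes for an RNA helicase of splicing. The other sites lay between genes on the far side of Etv4, 28.1 kb (chr11:101813300-101813618, fold 9.99) and 29.7 kb (chr11:101814835-101815171, fold 6.72) away, with summits 1.55 kb apart. Etv4 was the nearest protein-coding gene for both. Etv4 had 0 Hand1 sites, but 4 Hand1 summits lay just past the window, 111 kb to 128 kb away, with Arl4d or Rdm1 nearer. Their folds were 5.13 to 8.23, and the summits with these 2 folds share 1 peak region (chr11:101641600-101642564). Farther out, 3 Foxf1 summits lay 180 kb to 186 kb from Etv4.

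**Figure D2:**
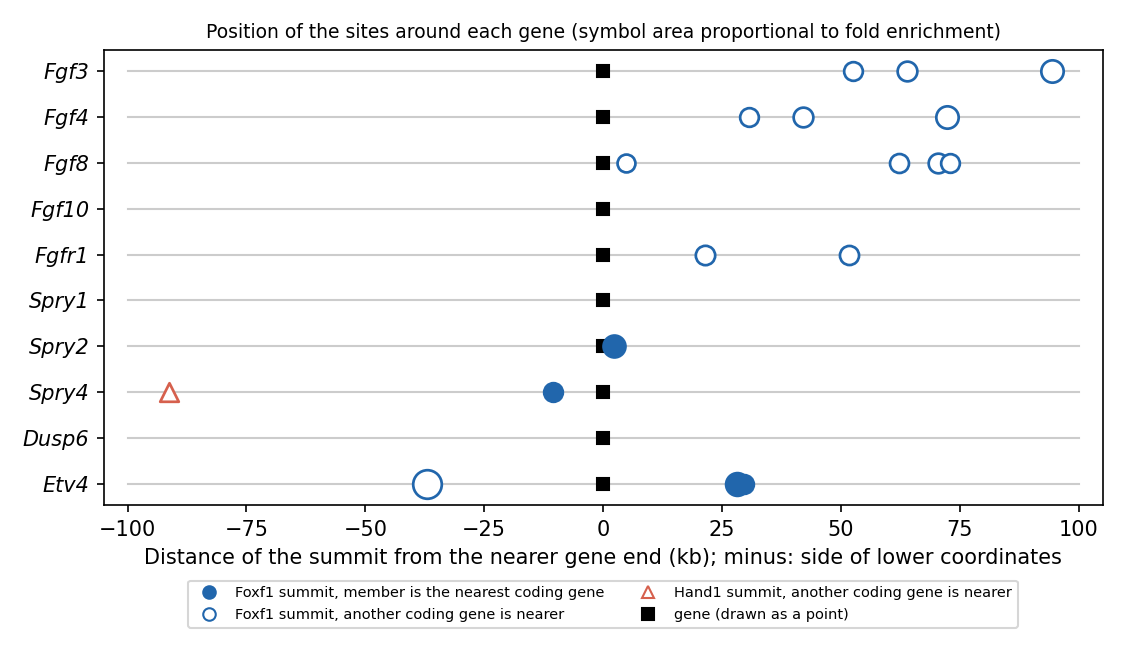
Distance of each summit from the nearer end of its FGF gene (horizontal axis, kb, minus for lower coordinates), 1 row per gene, with symbol area proportional to fold enrichment; circles are Foxf1 and the triangle is Hand1. Filled circles, at Spry2, Spry4 and Etv4, mark the 4 sites for which the FGF gene is the nearest protein-coding gene; the sites at Fgf3, Fgf4, Fgf8 and Fgfr1 are all open.

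Ligand genes were then set against feedback and target genes. The 4 ligand genes had 3, 3, 4 and 0 Foxf1 sites, a mean of 2.5 per gene and 7 different sites. The 5 feedback and target genes had 0, 1, 1, 0 and 3, a mean of 1 per gene and 5 different sites. The mean over all protein-coding genes was 1.25. The groups overlap, since each contains genes with 0 and with 3 sites. The ligand genes also have more neighbours: their windows held a median of 5.5 protein-coding genes, those of the feedback genes 2, and those of all genes 5. Foxf1 sites were found for 33.7% of all genes whose window held 1 to 3 protein-coding genes, and for 60.7% of those with more. Of the 6 FGF genes in the sparser windows 3 had a site, and of the 4 in the denser windows all 4 did. The part of neighbouring genes in the ligand count was not tested.

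The order of the groups depended on the setting. The mean number of Foxf1 sites per ligand gene minus that per feedback gene was 1.5 within 100 kb, 1.15 within 200 kb and 0.05 within 10 kb, but -0.25 within 50 kb. It was -0.4 when only as many Foxf1 peaks were kept, by highest fold, as the Hand1 list holds. When a site counted only for its nearest protein-coding gene, the ligand genes had 0 sites and the feedback genes 4, a difference of -0.8 per gene. These 4 sites belonged to Spry2, Spry4 and Etv4, so 3 of the 10 FGF genes had a Foxf1 site of their own, against 19.6% of all protein-coding genes. All 7 different sites of the ligand genes and both sites of Fgfr1 lay nearer to other genes, as did 1 of the 5 of the feedback genes. Among all protein-coding genes with a Foxf1 site, 36.8% had one for which they were the nearest gene, against 3 of the 7 FGF genes. This is a share of genes, and no such share was computed for sites. The counts of sites above therefore have no background beside them. The ligand windows hold more protein-coding genes than the feedback windows, and the part of this in the counts was not tested.

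**Figure D3:**
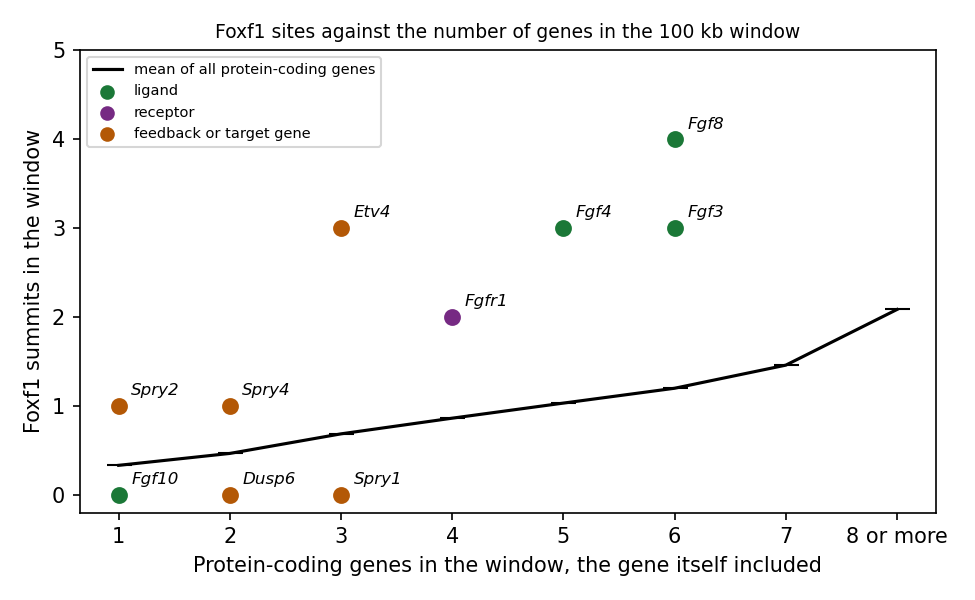
Foxf1 summits in the 100 kb window (vertical axis) against the number of protein-coding genes in that window, the gene itself included (horizontal axis), for the 10 FGF genes coloured by role; the black line is the mean over all protein-coding genes with that number, from 0.331 at 1 gene to 2.08 at 8 or more. Fgf3, Fgf4 and Fgf8 sit in windows of 5 or 6 genes, and the 3 genes without a site in windows of 1 to 3.

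The number of sites can also be read against genes with equally full windows. In windows of 3 protein-coding genes, where the mean over all such genes was 0.685 Foxf1 sites, Etv4 had 3 and Spry1 had 0. In windows of 2 genes, with a mean of 0.465, Spry4 had 1 and Dusp6 had 0. In windows of 1 gene, with a mean of 0.331, Spry2 had 1 and Fgf10 had 0. Fgfr1 had 2 in a window of 4 genes, where the mean was 0.861, and Fgf4 had 3 in a window of 5, where it was 1.03. Fgf8 had 4 and Fgf3 had 3 in windows of 6 genes, where the mean was 1.20, and 90.2% of all protein-coding genes had fewer sites than Fgf8. The 3 genes without a site lay below these means and the other 7 above. In windows of 1 to 4 genes the mean is under 1, so the side only tells whether a gene has a site. Foxf1 sites were found for 20.7%, 31.6%, 41.0% and 48.8% of all genes in windows of 1, 2, 3 and 4 genes. In windows of 5 and 6 genes it was 52.9% and 57.5%. Fgf3, Fgf4, Fgf8 and Etv4 each had at least 3 Foxf1 sites, 4 of 10 against 17.6% of all protein-coding genes, but Fgf3 and Fgf4 count the same 3 sites. A Foxf1 summit within 10 kb was found for 2 of the 10, Fgf8 and Spry2, against 22.7% of all genes.

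**Figure D4:**
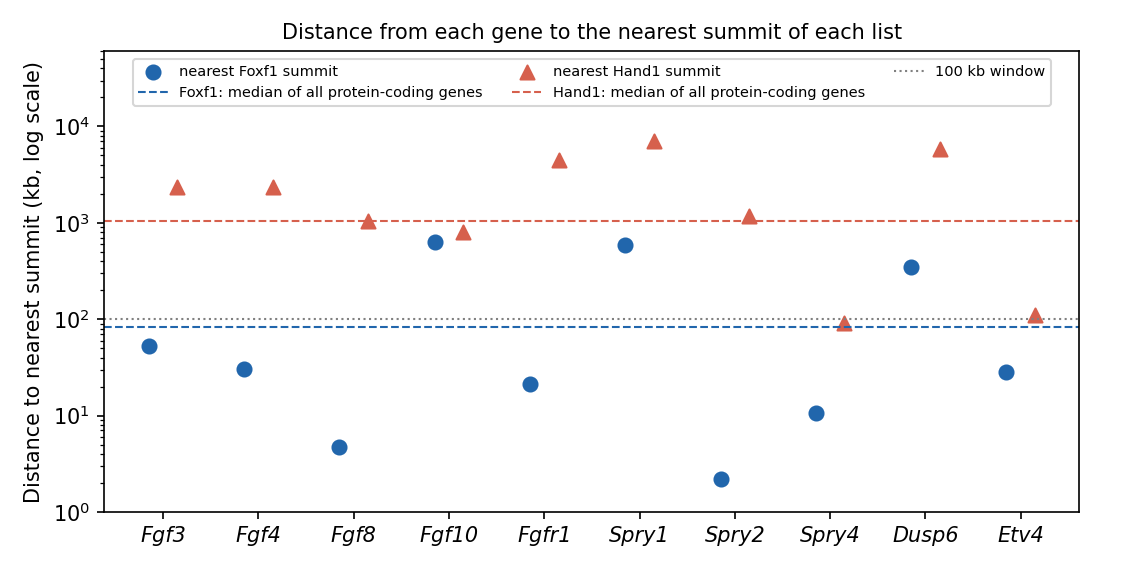
Distance from each FGF gene to the nearest Foxf1 summit (circles) and Hand1 summit (triangles) on a log axis in kb; dashed lines are the medians over all protein-coding genes, 82.7 kb for Foxf1 and 1040 kb for Hand1. Spry2 has the closest Foxf1 summit (2.19 kb), while for Fgf10, Spry1 and Dusp6 it lies 349 kb to 636 kb away.

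The strength of the sites was described by the authors' fold enrichment, a linear ratio of summit signal to background. Over the 14 Foxf1 sites it ran from 6.13 at Fgf8 through a median of 7.09 to 15.7 at Etv4, and the median of the whole Foxf1 list was 7.62. Of the 14 sites, 10 lay under that median and 4 above it: the site in Ccnd1, the Spry2 site, the Dhx8 promoter site and the stronger intergenic Etv4 site. The median fold was 6.89 over the 7 ligand sites and 9.24 over the 5 feedback and target gene sites, and the ranges (6.13 to 9.60 and 6.70 to 15.7) overlapped. The inferred number of fragments at the summit ran from 22 to 64 with a median of 26.5, against 29 in the whole list, so most of these values rest on few fragments.

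**Figure D5:**
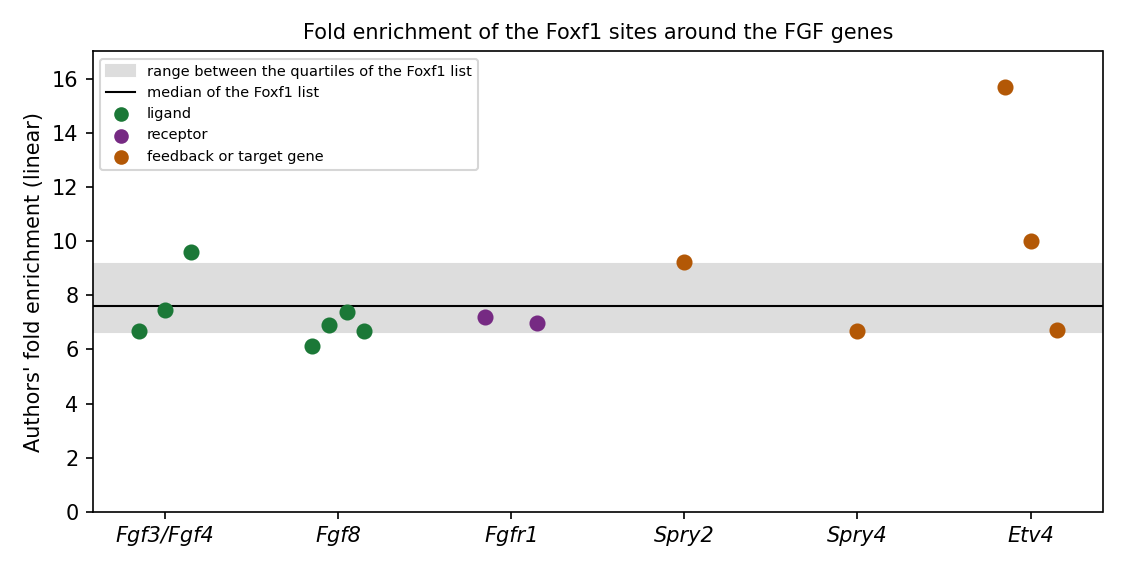
Authors' fold enrichment (vertical axis, linear) of the 14 Foxf1 sites by gene, coloured by role, with the median of the whole Foxf1 list (7.62, black line) and the range between its quartiles (6.65 to 9.16, grey). The site in the Dhx8 promoter near Etv4 (15.7) is the highest, and all 4 sites near Fgf8 lie under the median.

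The other 42 genes of the pathway were counted in the same way. A Hand1 site was found for 0 of the 42, against 9.90% of all protein-coding genes. A Foxf1 site was found for 23 of the 42, close to the 53.3% of all protein-coding genes, with a mean of 1.29 sites per gene against 1.25. By role it was 11 of 18 other Fgf genes and 3 of 6 receptor and coreceptor genes. It was also 3 of 6 adaptor genes and 6 of 12 feedback and target genes. The Fgf genes were grouped by name, and Fgf11, Fgf12, Fgf13 and Fgf14 among them are not secreted ligands. Fgf11 had 4 Foxf1 sites, and Fgf12, Fgf13 and Fgf14 had 0. At least 3 Foxf1 sites were found for 9 of them, near the 17.6% of all protein-coding genes. Fgf22 had the most, 8 sites with folds of 7.12 to 10.9, but another protein-coding gene was nearer to each, and the same held for the 4 sites of Fgf21, the 4 of Fgf11 and the 3 of Fgf5. Fgf15 had the 3 sites already described for Fgf3 and Fgf4 and was the nearest gene for 2 of them.

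Among the other feedback genes, Dusp4, which codes for another ERK phosphatase, had 3 Foxf1 sites with folds of 6.65 to 9.79, and it was the nearest protein-coding gene for all 3. Il17rd, whose product Sef restrains FGF signalling at the receptor, had 3 sites with folds of 7.46 to 8.75 and was the nearest gene for 2. Frs3, an adaptor gene, had 5 sites (folds 5.29 to 12.5) and was the nearest for 1, and Fgf23 had 3 and was the nearest for 1. In all, 12 of the 42 genes had a Foxf1 site for which no protein-coding gene was nearer, against 19.6% of all protein-coding genes.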

How the data were processed

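Peak lists in narrowPeak layout without a header were read for 2 of the 5 samples; the other samples were not analysed here. Per the submitters' processing notes, the tools included Trim Galore 0.6.6, Bowtie2 2.3.4.3, SAMtools 1.9, deepTools 3.5.0 and MACS2 2.2.7.1, and the build was mm10, which shares chromosome coordinates with GRCm38; the caller's settings and control, and whether libraries were pooled, are not given in the sources used here. The fold enrichment (a linear ratio), the p-value and q-value (each as −log10), and the score (10 times −log10 p) are the authors' deposited values for each peak. Hand1 peaks reach down to a −log10 q-value of 5.01 and Foxf1 peaks to 10.0.

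The gene table was RefSeq on GRCm38.p6 and gives no strand; strands came from the promoter table. Coordinates are 1-based. A summit counted for a gene when inside it or within 100 kb, and 1 line was 1 site. Fragments k and control level λ were solved by taking the fold as (k + 1)/(λ + 1) and p as the Poisson tail above k at mean λ, for whole k matching −log10 p within 0.005 (plus 0.01% of its value); 12 Foxf1 peaks, none a site here, had no solution. Library depth is unknown. Python 3.11.15, pandas 2.3.3, NumPy 2.4.6 and SciPy 1.17.1 were used, tested on simulated data. All 10 members are named; of the 42 other pathway genes, those with a site in both lists (0) or at least 3 in a list (9). Members and lists were chosen with earlier results of these data known.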

Additional observations from a re-analysis of the deposited data

How the results depend on the processing

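The 6 counts and differences were recomputed under each alternative, 58 values in all, of which 35 stayed within 1.5 times the main value. Some of the 35 could not move, as described below, so this count overstates stability. Within 10 kb there were 2 Foxf1 sites at 2 genes, 0 Hand1 sites at 0 genes, and differences between ligand and feedback genes of 0.05 (Foxf1) and 0 (Hand1) sites per gene, against 1.5 and -0.2. Within 50 kb there were 9 Foxf1 sites and 0 Hand1 sites at 0 genes, and the differences were -0.25 and 0. Within 200 kb there were 19 Foxf1 sites at 7 genes with a difference of 1.15, and 5 Hand1 sites at 2 genes, the 4 added ones near Etv4, with a difference of -1. Counting each site for its nearest protein-coding gene left 4 Foxf1 sites at 3 genes and 0 Hand1 sites at 0 genes, with differences of -0.8 and 0. With lists of equal length by fold, 2 Foxf1 sites remained at 1 gene, Etv4, and the difference was -0.4. Fewer Foxf1 peaks enter by construction, and the shorter Hand1 list stays whole, so its values could not move. These settings move the windows or the number of peaks, and no other cause was tested. A −log10 q-value of at least 10 removes no Foxf1 peak and so says nothing about that list. Taking 1 site per region or any base of the peak changed none of the 6 values, and leaving out peaks of high control level removed 1 Foxf1 site, at Fgfr1. Taking Fgf3 and Fgf4 as 1 locus gave a Foxf1 difference of 1.33, and leaving out Etv4 gave 2; both were chosen after seeing the data.

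No paired analysis was possible because each factor has a single list, which also left no replicate to leave out.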

Other observations

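Genes for the D-type cyclins, which drive entry into the cell cycle, recurred among the neighbours of FGF pathway genes with Foxf1 sites; they were singled out after the values were seen. Ccnd1, whose 100 kb window also takes in Fgf3, Fgf4 and Fgf15, had 3 Foxf1 sites, 1 of them inside it. Ccnd2, beside Fgf23, had 3 Foxf1 sites (folds 6.81 to 9.60), 1 of them inside it, and it was the nearest protein-coding gene for 2. Ccnd3, whose 100 kb window also takes in Frs3, had 5 Foxf1 sites (folds 5.29 to 9.89), 3 of them inside it. It was the only one of the 3 cyclin genes with a Hand1 site, 1 inside the gene with a fold of 8.02. Among all protein-coding genes 17.6% had at least 3 Foxf1 sites. This share is no test of the cyclin genes, since Fgf15, Fgf23 and Frs3 were named for having at least 3 sites. The 3 Ccnd1 sites are those of Fgf15, the 3 Ccnd2 sites are those of Fgf23, and Ccnd3 shares sites with Frs3.

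The caller's values repeat between sites. The site nearest Fgf15, the one at the Kcnip2 promoter near Fgf8 and the Spry4 site had the same fold (6.70) and the same −log10 q-value (10.9), each with 22 fragments over a control level of 2.43, and 41 peaks of the Foxf1 list shared these values. The 5703 Foxf1 peaks took 1788 different fold values.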
